A study of Homo sapiens with 9 samples.

Results

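The genes described here encode the proteins of the cytosolic ribosome. They were taken by symbol, as RPL or RPS followed by a number (with an optional A, X or L), the stalk genes RPLP0 to RPLP2, and RPSA, with no pseudogene. The symbols picked out 81 of 56307 entries that carried a gene identifier. Of these, 77 are core ribosomal proteins (46 of the large and 31 of the small subunit), and 4 are variant copies: RPL3L, RPL10L, RPL39L and RPS27L. All 81 passed the filter on low counts, which left 24182 genes for testing. They lie on 21 chromosomes.

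RNA was sequenced from 9 libraries of HNES1, a wild-type human naive pluripotent stem cell line derived from an embryo, on day 5 after the cells were taken out of naive culture to become primed. Each of 3 groups had 3 libraries: vehicle (DMSO), UNC6852 at 2.5 µM (PROTAC), which leads the Polycomb repressive complex 2 (PRC2) subunit EED to degradation, and UNC1999 at 1 µM (UNC), which blocks the PRC2 enzymes EZH1 and EZH2. Every group shared the same medium, N2B27 with the tankyrase inhibitor XAV939, and treatment began the day before this medium and was renewed daily. The comparisons ask how transcript levels change when PRC2 is perturbed during this transition. A single line was used, it was kept on mouse feeder cells before the experiment, and the experiment was carried out 3 times. Libraries are named by group and replicate number, so DMSO 1 is the DMSO library numbered 1.

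A ribosome has a large and a small subunit, each built from ribosomal RNA and a fixed set of small, mostly basic proteins, most of them used in equal amounts. Their mRNAs are among the most abundant of growing cells, and most begin with a cytidine followed by a run of pyrimidines, the 5′ terminal oligopyrimidine (TOP) motif. Through that motif the kinase mTOR and the binding protein LARP1 adjust their translation and stability together, while MYC and RNA polymerases I and III set the supply of ribosome parts. Pluripotent stem cells are known for active ribosome production.

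The start-site sequences of the stalk proteins, of RPL11 and of RPS29 are shown because these members are followed below. Those of the stalk proteins and RPL11 carry the feature that most members share. Each window, from the RefSeq promoter table for GRCh38.p14, runs 5′ to 3′ from 15 bases before the first transcribed base and is 30 bases long. Capitals mark the unbroken run of C and T that starts at the first transcribed base. RPS27L and RPL10L, variant copies whose windows were added after their values were seen, have no such run.
RPLP0, chr12:120201097-120201126, minus strand: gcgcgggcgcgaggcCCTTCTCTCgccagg
RPLP1, chr15:69452803-69452832, plus strand: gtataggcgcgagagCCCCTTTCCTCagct
RPLP2, chr11:809952-809981, plus strand: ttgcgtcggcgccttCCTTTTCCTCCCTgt
RPL11, chr1:23691791-23691820, plus strand: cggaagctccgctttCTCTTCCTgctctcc
RPS29, chr14:49598696-49598725, minus strand: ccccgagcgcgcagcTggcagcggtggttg
RPS27L, chr15:63157463-63157492, minus strand: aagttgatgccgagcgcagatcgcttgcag
RPL10L, chr14:46651767-46651796, minus strand: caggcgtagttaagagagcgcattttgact

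The window of RPL11 is that of 1 of its 2 listed starts. RPLP0, RPLP1, RPLP2 and RPL11 began with C and a long pyrimidine run, whereas RPS29 began with T followed by G. An entry was found for 64 members, 62 of them core. A start at C followed by at least 4 bases that are each C or T was found in 46 of 62 core members (74.2%), against 5.14% of 27305 genes in the same table. The letters CTTTCC stood within 15 bases on either side of the start, on the sense strand, in 30.6% of core members and 1.98% of all genes; this motif can overlap the pyrimidine run. Over the whole 300 bases of each entry and both strands, CCGGAA, the core of sites for ETS family factors, occurred in 56.5% against 20.1%, and AAGATGGC, part of the YY1 motif, in 9.68% against 3.52%. The E-box CACGTG, bound by MYC with MAX, was in 6.45% of core members and 8.77% of all genes, and TATAAA was in 8.06% against 14.0%. GGGCGG, the core of sites for SP1, was in 58.1% and 48.3%, so the pyrimidine start had the widest gap in percentage points of the features searched. A match is a description of letters and was not tied to binding.

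The libraries held 31648689 (PROTAC 3) to 101073148 (UNC 1) counts. Core members had at least 4463 counts in every library, so their precision was set by the spread between libraries and not by counting. The share of mitochondrially encoded transcripts was 4.52% ± 0.526 for DMSO, 3.44% ± 0.237 for PROTAC and 3.999% ± 0.667 for UNC (SD, n = 3). Of the markers for the labelled cell type, 9 of 10 pluripotency genes were matched, and their summed level was 4813 to 5432 CPM (counts relative to the library total, scaled by TMM factors). Trophoblast markers summed to 132 to 173 CPM and mesoderm markers to 20.3 to 37.0 CPM, while fibroblast markers summed to 553 to 636 CPM, with LUM alone at 0 in every library. In UNC against DMSO by group alone (0.720% of all genes called in edgeR's test), 1 of 12 trophoblast markers, GATA3, was called lower, and of 6 fibroblast markers tested 1 was higher and 2 lower. Paired by replicate number (13.5% of all genes called), 7 of 12 trophoblast markers fell and 1 rose, 4 of 6 fibroblast markers fell and 2 rose, 3 of 6 mesoderm markers fell and 3 of 9 pluripotency markers rose. The part of these cells in the results below was not tested. In bulk RNA, fewer cells of a type and less RNA per cell cannot be told apart.

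Together the 81 members took 5.14, 5.91 and 5.82% of counts in DMSO 1 to 3 (5.62% ± 0.419), 5.61, 5.998 and 5.43% in PROTAC 1 to 3 (5.68% ± 0.292), and 5.29, 6.15 and 5.88% in UNC 1 to 3 (5.77% ± 0.442; SD, n = 3 per group). The group means lay within 1 SD of each other and the ranges of all 3 groups overlapped. The lowest share was that of DMSO 1 and the highest that of UNC 2. The share was of deposited gene counts and not of all RNA.

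Levels of the core members were compared per kilobase of coding sequence, because longer mRNAs yield more counts. Coding length leaves out the untranslated parts of an mRNA, so this measure favours members with short coding sequences. RPL39, for example, has 153 coding and 401 spliced bases. The median was 1404 CPM per kb, with quartiles of 1021 and 1737, and the highest member stood 11.8-fold above the lowest. RPL39, a very small protein near the exit tunnel, was highest at 3627 CPM per kb (3020 to 4171 over 9 libraries). RPL37A, another small large-subunit protein, followed at 3279 (2874 to 3718), and RPS18, which lies at the head of the small subunit, at 2567 (2157 to 2897). The ranges of RPL39 and RPL37A overlapped over libraries, as did those of RPL37A and RPS18. Such overlap leaves aside that the genes were measured in the same libraries, and differences within libraries were not tested.

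At the low end stood RPL6 at 770 CPM per kb (676 to 839), RPS26 at 635 (581 to 703) and RPL21 at 307 (279 to 353). RPL21, a protein of the large subunit, was the only one of these 3 that lay apart: its highest library was below the lowest of RPS26. RPL21 has 66 pseudogenes named for it in GENCODE 29. RPL23A has 91, the most, and RPSA has 74, while all members together have 1133. The table held 9 pseudogene rows of members, which took at most 0.000598% of counts. Reads from pseudogenes can be given to the parent gene or lost from it, and no source used here states how the counting treated them.

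The order depended on the length used. By spliced length in place of coding length, RPL13A, RPS2 and RPS18 were highest and RPL22, RPL27A and RPL37 lowest, with a 27.0-fold span. Spearman's rho between both orders was 0.558 over 77 genes. RPL37, for example, has 291 bases in its longest coding sequence and 7686 spliced bases in the shortest transcript with that coding length. Levels per kb of coding length were lower for members with more pseudogenes (rho = -0.310 over the same 77 genes), but not per kb of spliced length (rho = -0.0995). Levels per kb of coding length were also lower for members with longer coding sequences (rho = -0.315), a length that is itself the divisor. These correlations describe genes within the same libraries, which are not independent.

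**Figure D1:**
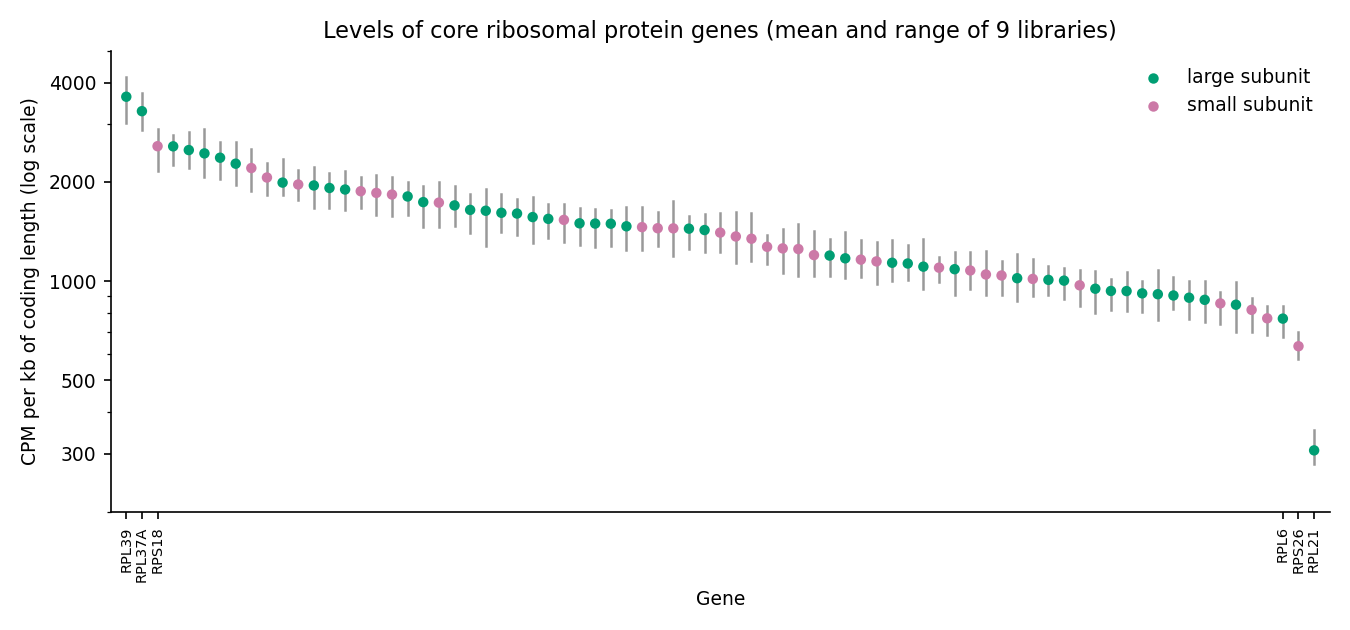
Mean level of each of 77 core ribosomal protein genes, in CPM per kb of coding length on a log axis, with the range over 9 libraries as a vertical line; the 3 highest and 3 lowest genes are labelled. Levels fall steadily from 3627 for RPL39 to 635 for RPS26, and RPL21 stands apart at 307.

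The 4 variant copies were far below their partners. RPL3, a large protein near the catalytic centre, was at 1822 ± 113 CPM in DMSO, and its muscle-type copy RPL3L at 5.06 ± 1.37 CPM (SD, n = 3). RPL10, a late-joining protein near the catalytic centre, was at 546 ± 57.1 CPM, and RPL10L, a copy known from testis, at 0.154 ± 0.0321 CPM, from 11, 15 and 5 counts. RPL39 was at 543 ± 78.1 CPM and RPL39L, also known from male germ cells, at 44.3 ± 2.66. RPS27, a zinc-binding protein of the small subunit, was at 361 ± 41.6 CPM, and RPS27L, a copy known as a p53 target, at 96.3 ± 6.45. RPS27L and RPL39L were thus the copies with the highest levels in these cells. RPL3L overlaps another entry of the table, as do RPL10L and RPS27L, whereas RPL39L overlaps none.

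UNC1999 left no ribosomal protein gene called by group alone. The count was 0 of 81 members in UNC against DMSO at a false discovery rate of 0.05 in edgeR's quasi-likelihood test, where 0.720% of all genes tested passed. The lowest adjusted p in that edgeR test was 0.609, that of RPL23A. At an unadjusted p under 0.05 the count was also 0, against 12.4% of all genes, and DESeq2 (4.44% of all genes called) and limma-voom (0.666%) called 0. The median log2 fold change of core members was 0.08, with 71 of 77 above 0, beside a median of -0.01 over all genes. The core 95% intervals ran from -0.26 to 0.39, so changes beyond 0.5 on the log2 scale lay outside every one of them. Without UNC 2 the median over all 81 members was -0.000888.

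Replicate numbers carried much of the spread, so each library was also set against the library with the same number. The UNC minus DMSO median over core members was 0.05, 0.11 and 0.04 on the log2 scale for numbers 1, 2 and 3, with 60, 69 and 60 of 77 members above 0. Higher in all 3 pairs were 41 of 77 core members and 42 of 81 members, where 23.0% of all genes were, and 0 members were lower in all 3 (24.1% of all genes). The ranges of UNC and DMSO overlapped for every member, whereas 8.34% of all genes were higher in UNC without overlap and 9.07% lower. The direction was thus shared by most members at a size below the spread between libraries. Members are measured in the same libraries and can shift together, so counts of members here and below are not counts of replicates. The replicates are the 3 pairs.

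With the replicate number as a block (the paired fit), 1 of 81 members was called in UNC, and it was higher; 13.5% of all genes were called and 7.05% were higher. At an unadjusted p under 0.05 there were 10 members, against 25.6% of all genes. The called member was RPL23A, a protein at the exit of the nascent chain tunnel, on chr17:28719985-28724359. RPL23A was at 444, 545 and 528 CPM in DMSO 1 to 3, 493, 628 and 573 CPM in UNC 1 to 3, and 502, 578 and 493 CPM in PROTAC 1 to 3. Each UNC library was above the DMSO library of its number, by 0.15, 0.20 and 0.12 on the log2 scale, and the groups overlapped. The fitted rise of RPL23A was 0.16 on the log2 scale, with SE 0.0543 and adjusted p = 0.0476 in the paired edgeR test, against 0.609 by group alone. Its gene overlaps TLCD1 and another entry, and 53 of 81 members overlap some other entry. No member without such an overlap was called, and the part of overlap in the call was not tested.

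That call was near the threshold. Across 20 alternatives within the paired fit, adjusted p for RPL23A in edgeR, DESeq2 or limma-voom ran from 0.0105 to 0.332, and 8 alternatives kept it. Leaving out DMSO 1, DMSO 2, PROTAC 2 or any UNC library ended the call, with changes of 0.13 to 0.21 on the log2 scale over all alternatives. The other members at an unadjusted p under 0.05 included RPL10 (0.13, adjusted p = 0.119), RPS12 (0.12, adjusted p = 0.141) and RPS28 (0.12, adjusted p = 0.140, paired edgeR test). None of these passed.

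**Figure D2:**
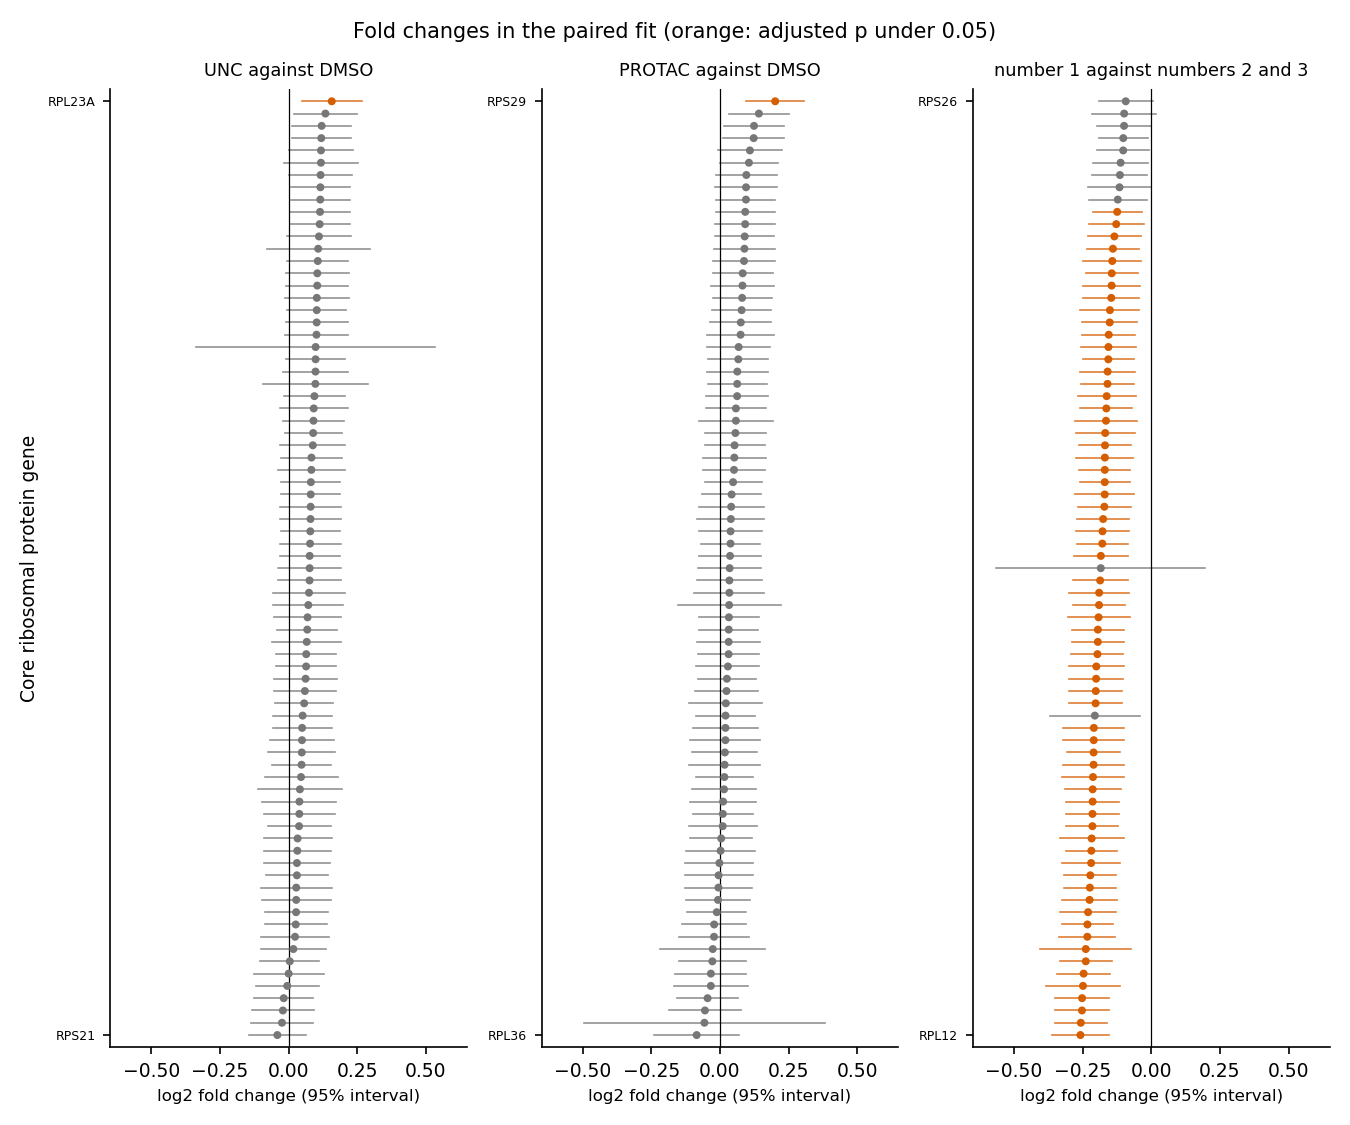
Log2 fold changes of 77 core members in the paired fit with 95% intervals, sorted within each panel, for UNC against DMSO, PROTAC against DMSO, and number 1 against numbers 2 and 3; orange marks an adjusted p under 0.05, and the genes at both ends of each panel are labelled. RPL23A alone is called in UNC and RPS29 alone in PROTAC, while 66 core members lie below 0 and are called in the third panel.

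UNC6852 likewise gave no call by group alone. By group alone, 0 of 81 members were called in PROTAC against DMSO in edgeR's quasi-likelihood test, where 0% of all genes were, and the lowest adjusted p was 0.991. The count was 0 at an unadjusted p under 0.05 (4.96% of all genes), and 0 in DESeq2 (0.100%) and limma-voom (0%). The core median was 0.03 on the log2 scale, with 60 of 77 members above 0 and intervals from -0.36 to 0.44. The median over all members was -0.03 without DMSO 1. By number, the core medians were 0.17, 0.05 and -0.09, with 76, 60 and 13 of 77 members higher in PROTAC. Pairs 1 and 3 thus pointed opposite ways, with 14 of 81 members higher in all 3 pairs (18.5% of all genes) and 0 lower (17.8%).

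In the paired fit 1 member of 81 rose in PROTAC, where 3.02% of all genes were called and 2.03% were higher, and 5 had an unadjusted p under 0.05 (15.9% of all genes). This was RPS29, a small zinc-binding protein of the head of the small subunit, on chr14:49570984-49599164. RPS29 was at 270, 344 and 295 CPM in DMSO 1 to 3, 329, 377 and 336 CPM in PROTAC 1 to 3, and 304, 390 and 295 CPM in UNC 1 to 3. The PROTAC library exceeded DMSO in each pair, by 0.28, 0.13 and 0.19 on the log2 scale, although DMSO 2 was above PROTAC 1 and PROTAC 3. The fitted rise of RPS29 was 0.20 on the log2 scale, with SE 0.0527 and adjusted p = 0.0259 in the paired edgeR test, against 0.993 by group alone. The gene overlaps LRR1 and 2 further entries.

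Of 20 alternatives within the paired fit, 11 kept the call of RPS29, with adjusted p from 0.0124 to 0.165 over edgeR, DESeq2 and limma-voom. Leaving out any DMSO library, PROTAC 1 or PROTAC 3 ended it. In UNC its paired change was 0.12 (adjusted p = 0.151, edgeR), and PROTAC against UNC gave 0.09 (95% interval -0.02 to 0.19), so the difference between compounds was not shown. RPL31, RPS12, RPS27A and RPS9 had an unadjusted p under 0.05 in PROTAC and paired changes of 0.14, 0.12, 0.12 and 0.11, and none passed.

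**Figure D3:**
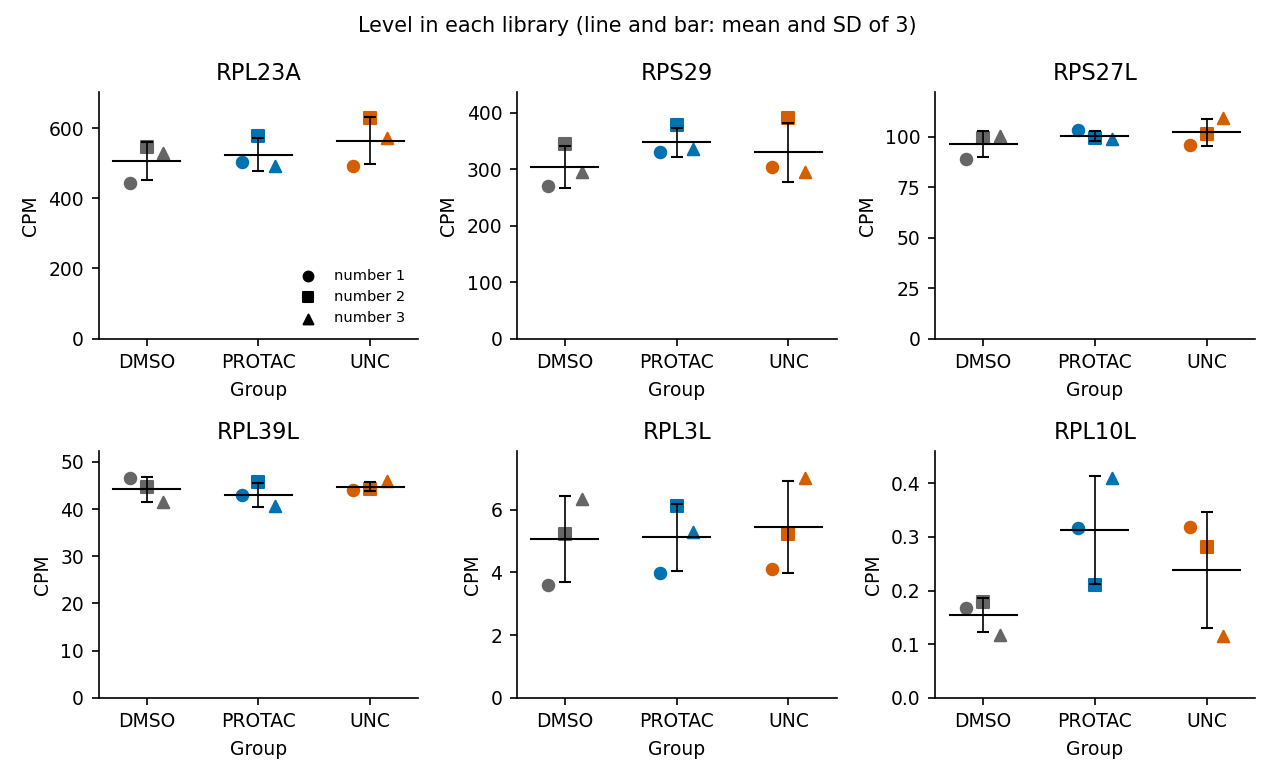
CPM of RPL23A, RPS29 and the 4 variant copies in each library by group, with marker shape for the replicate number and a line and bar for mean and SD of 3 libraries; each axis starts at 0. For RPL23A, UNC lies above DMSO within every number although the groups overlap, and RPL3L is lowest in number 1 of every group.

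The compounds were also set against each other, at 2.5 µM for UNC6852 and 1 µM for UNC1999, doses that differ. By group alone 0 of 81 members were called in PROTAC against UNC in edgeR's quasi-likelihood test (0.00827% of all genes), with 0 at an unadjusted p under 0.05 (4.70%) and 0 in DESeq2 (0.701%) and limma-voom (0.00414%). The core median was -0.03, with 19 of 77 above 0. In the paired fit 0 were called (2.90% of all genes) and 3 had an unadjusted p under 0.05 (13.0%): RPS27 (-0.15), RPL37 (-0.11) and RPS14 (0.11 on the log2 scale). RPS14 and RPS21 were higher in PROTAC in all 3 pairs (17.8% of all genes), and RPL21, RPL37 and RPS6 lower (15.8%). For 0 members were the groups apart, where 5.15% of all genes were higher and 3.93% lower without overlap. By number the core medians were 0.10, -0.07 and -0.14, so pair 1 had the opposite sign to the other pairs. Without PROTAC 1 the paired fit called 3 members in this comparison, a count given here without the share of all genes called in that fit. The median over all members was 0.03 without UNC 2.

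The stalk recruits translation factors to the large subunit and is built from RPLP0, RPLP1 and RPLP2. RPLP0 was at 1168, 1436 and 1333 CPM in DMSO 1 to 3, 1322, 1517 and 1303 CPM in PROTAC, and 1258, 1519 and 1378 CPM in UNC. RPLP1 was at 624, 673 and 687 CPM in DMSO, 630, 758 and 646 CPM in PROTAC, and 629, 800 and 683 CPM in UNC. RPLP2 was at 506, 608 and 586 CPM in DMSO, 561, 639 and 608 CPM in PROTAC, and 535, 670 and 558 CPM in UNC. The groups overlapped for all 3, and number 2 was highest in each group except for RPLP1 in DMSO. Paired changes in UNC were 0.08, 0.08 and 0.05 for RPLP0, RPLP1 and RPLP2, with intervals that all included 0, and in PROTAC 0.08, 0.03 and 0.09.

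RPL5 and RPL11 join the 5S ribosomal RNA and, outside the ribosome, can bind MDM2, the ubiquitin ligase of p53. The level of RPL5 was 870 ± 70.2 CPM for DMSO, 894 ± 34.7 for PROTAC and 920 ± 61.9 for UNC (SD, n = 3). RPL11 was at 1023 ± 97.3, 1004 ± 68.6 and 1045 ± 134 CPM in the same order. The group means of both lay within the spread of the libraries, and their paired changes were 0.08 and 0.03 in UNC and 0.04 and -0.02 in PROTAC. Of the 8 genes of the 5S particle and MDM2 axis, 0 were called by group alone in any comparison, where 0.720% of all genes (UNC), 0% (PROTAC) and 0.00827% (between compounds) were. In the paired edgeR test, with 3.02% of all genes called in PROTAC, 1 of the 8 was called: CDKN1A, a cell cycle inhibitor and p53 target, rose by 0.27 in PROTAC (adjusted p = 0.00537), and was at 134, 155 and 124 CPM in DMSO and 150, 190 and 161 CPM in PROTAC. CDKN1A lies further down that axis and is not a ribosomal protein; MDM2 itself had 0.08 in both comparisons.

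RPL10L was the only member with no overlap between PROTAC and DMSO (6.07% of all genes were higher without overlap and 5.44% lower). It was at 0.167, 0.178 and 0.118 CPM in DMSO and 0.317, 0.210 and 0.410 CPM in PROTAC, from 30, 15 and 13 counts in PROTAC. Its fold change was 0.91 with a 95% interval of -0.11 to 1.92 (adjusted p = 0.386, paired edgeR test), so it was not called. RPL3L was at 3.61, 5.23 and 6.34 CPM in DMSO, 3.97, 6.10 and 5.27 CPM in PROTAC, and 4.12, 5.23 and 7.02 CPM in UNC. Its groups overlapped throughout. RPL39L stayed between 40.6 and 46.7 CPM and RPS27L between 88.9 and 109 CPM, with paired changes of 0.02 and 0.09 in UNC and -0.04 and 0.07 in PROTAC, none called.

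Spread between libraries of a group was described by the within-group SD of log2 CPM. The median SD was 0.145 for core members (0.0911 to 0.213) and 0.202 for all genes tested. The latter include genes with far fewer counts, so the 2 medians are not a like comparison. Among members the SD was largest for RPL10L (0.498), RPL3L (0.371) and RPL26 (0.213), a protein near the tunnel exit. It was smallest for RPL39L (0.0731), RPS27L (0.0810) and RPS21 (0.0911). RPL26 was at 579, 772 and 769 CPM in DMSO and 706, 759 and 558 CPM in PROTAC. Its low libraries were DMSO 1 and PROTAC 3, which carry different numbers, and its paired interval in UNC was wide (-0.34 to 0.53).

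Most of that spread followed the replicate number. For the median core member, number took 67.7% of the variance of log2 CPM over 9 libraries and group 9.64%, beside 40.9% and 22.5% for the median gene. Core medians of log2 CPM, relative to the mean of 9 libraries, were -0.20, 0.07 and 0.01 in DMSO 1 to 3, -0.03, 0.12 and -0.07 in PROTAC 1 to 3, and -0.14, 0.17 and 0.07 in UNC 1 to 3. In some libraries most members shifted the same way: in DMSO 1 the 10th to 90th percentiles of core members were -0.25 to -0.14, and in UNC 2 they were 0.12 to 0.25. In DMSO 3, PROTAC 1, PROTAC 3 and UNC 3 these percentiles lay on both sides of 0. They were -0.16 to 0.03 in PROTAC 3 and -0.04 to 0.18 in UNC 3.

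**Figure D4:**
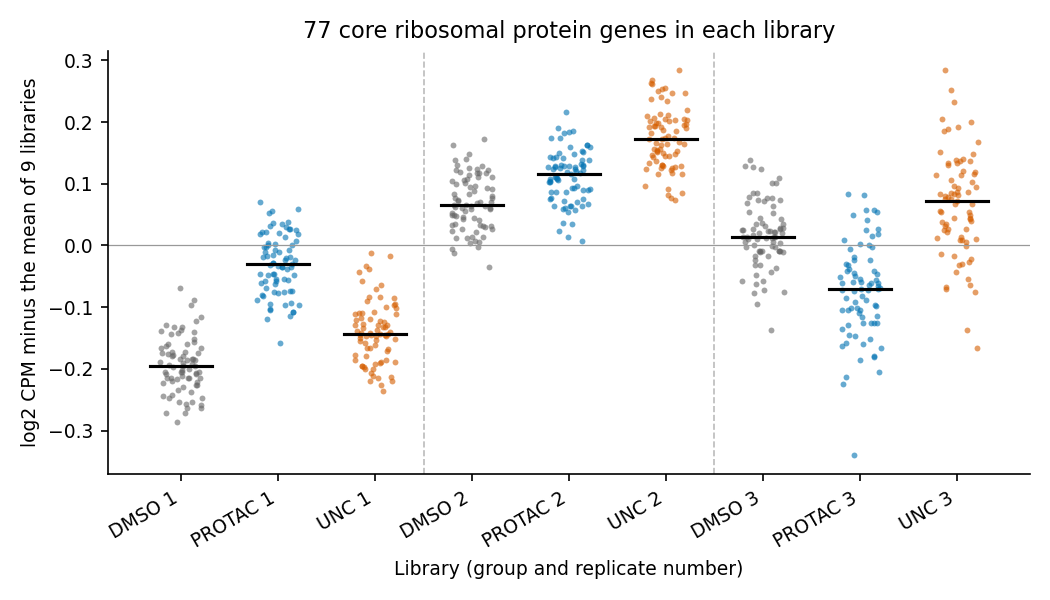
Log2 CPM of 77 core members in each library minus the gene's mean over 9 libraries, ordered by replicate number; a point is a gene and a bar the library's median. DMSO 1 and UNC 1 sit lowest (medians -0.20 and -0.14) and UNC 2 highest (0.17), while PROTAC 1 lies near 0.

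Number 1 was therefore set against numbers 2 and 3 in the paired fit. This comparison was chosen because the core medians of DMSO 1 and UNC 1 were low, so its counts describe that observation and are no independent test of it. If a number is 1 run of the experiment, it sets 1 run against 2, with libraries counted as replicates. In edgeR's quasi-likelihood test, 67 of 81 members were lower in number 1 and 0 higher, where 13.1% of all genes were lower and 28.1% differed either way. Among core members 66 of 77 were called, all 77 had negative values, and the median was -0.18 on the log2 scale beside 0.01 over all genes. Called core members fell by up to 0.26: RPL12, RPL13, RPSA, RPS3A and RPL36 had -0.26, -0.26, -0.25, -0.25 and -0.25. RPL12, at the base of the stalk, was at 828, 979 and 1013 CPM in DMSO 1 to 3 and 833, 1099 and 1098 CPM in UNC 1 to 3, so number 1 lay below the other two, and at 899, 1026 and 919 CPM in PROTAC. RPS26 had the smallest core value, -0.09, and was not called.

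Within groups, more members held this order in DMSO and UNC than in PROTAC. All 77 core members were lower in DMSO 1 than in DMSO 2 and DMSO 3 (35.4% of all genes), and 74 of 77 were lower in UNC 1 than in UNC 2 and UNC 3 (35.7%). In PROTAC the count was 25 of 77 (32.4%), and 23 core members held the order in every group (13.5%). The core medians of number 1 minus the mean of numbers 2 and 3 were -0.24 in DMSO, -0.26 in UNC and -0.05 in PROTAC. Without the DMSO libraries 23 members were called lower, without the UNC libraries 16, and without the PROTAC libraries 78. The shares of all genes called in these smaller fits are not given here, so these counts cannot be set against them. Whether the number difference differs between groups was not tested.

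Among variant copies, RPL3L had the lowest value in number 1 (-0.60), while RPL10L, RPL39L and RPS27L were not called. Other measures moved with the same libraries. RMRP and RPPH1, short RNAs that carry no poly(A) tail, had -0.38 and -0.34 on the log2 scale in number 1 and were called, whereas TERC, the third of the kind, had -0.07 and was not. Of the cell type markers, 8 of 12 for trophoblast were lower and 1 higher, 4 of 6 for mesoderm and 4 of 9 for pluripotency were higher and 0 lower, and 2 of 6 for fibroblasts were higher and 1 lower, where 28.1% of all genes differed either way. Of the naive markers 4 of 9 were lower and 1 higher, of the amnion markers 3 of 7 higher, of the endoderm markers 1 of 5 lower, and 0 of 8 neural markers were called. Number 1 held 63671981, 93633144 and 101073148 counts in DMSO, PROTAC and UNC, where the other libraries held 31648689 to 84708670. The mitochondrial share was highest in number 1 among DMSO libraries, lowest among PROTAC and between the others among UNC. The part of these in the result was not tested.

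FAU encodes a core ribosomal protein as a fusion with a ubiquitin-like protein, and its symbol falls outside the rule. FAU was at 322 ± 19.7 CPM (DMSO), 324 ± 18.3 (PROTAC) and 305 ± 34.6 (UNC; SD, n = 3). It was not called between groups in either fit, and it was lower in number 1 in the paired fit, as was the RPL22 copy RPL22L1. In UNC, RPL22L1 had 0.19 (adjusted p = 0.0547, paired edgeR test).

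By group alone 0.720% of all genes were called in UNC, 0% in PROTAC and 0.00827% between compounds, and the supporting lists of the ribosome pathway gave 0 calls in each, among 24 translation factors and partners with TOP mRNAs, 52 assembly factors, 29 genes of RNA polymerases I and III, 22 genes that control supply, and 17 chaperones and importers. Their medians by group alone in UNC were 0.09, -0.000937, -0.000318, 0.03 and 0.01 on the log2 scale, and in PROTAC 0.04, 0.03, 0.02, 0.02 and 0.03. The core ribosomal protein median in UNC was 0.08.

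In the paired edgeR test, 2 of 24 translation genes rose in UNC and 1 fell, where 13.5% of all genes were called. EIF3D, a subunit of initiation factor 3, rose by 0.19 and EIF4B, which aids the helicase EIF4A, by 0.17. VIM, an intermediate filament gene listed for its TOP start, fell by 0.33. In PROTAC 0 of 24 were called (3.02% of all genes). Among the abundant members, EEF1A1, the elongation factor that brings transfer RNA, was at 5297, 6513 and 6278 CPM in DMSO and 5844, 7490 and 6370 CPM in UNC, and was not called. In number 1, 14 of the 24 were lower and 0 higher (13.1% of all genes were lower), among them EEF1A1 (-0.21), EEF2 (-0.19) and TPT1 (-0.18).

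Most ribosome assembly factors were not called. In UNC 46 of 52 were not called in the paired edgeR test, where 13.5% of all genes were called, and 4 rose: RCL1 (0.26), the export adaptor NMD3 (0.22), the helicase DDX10 (0.19) and WDR43 (0.14). NOP56, a core protein of box C/D particles, fell by 0.15 and the methyltransferase NOP2 by 0.18. In PROTAC, where 3.02% of all genes were called, 1 of 52 was, UTP14A of the small subunit processome, at -0.25. In number 1, 3 were higher and 6 lower, where 28.1% of all genes differed. Of the polymerase genes, POLR1D (0.15), shared by polymerases I and III, and POLR3B (0.24) rose in UNC, 2 of 29 where 13.5% of all genes were called, and 0 were called in PROTAC (3.02%). In number 1, 3 of 29 were higher and 6 lower.

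Among genes that control ribosome supply, 4 of 22 rose and 3 fell in UNC in the paired edgeR test (13.5% of all genes called), and 0 were called in PROTAC (3.02%). In number 1, 8 of 22 were lower, among them MTOR, MLST8, RHEB and LARP1, and MYC and RPTOR were higher, where 28.1% of all genes differed. MYC, a transcription factor that drives ribosome genes, fell by 0.42 (SE 0.0651, adjusted p = 1.76e-05), and was at 48.4, 49.2 and 39.4 CPM in DMSO and 35.7, 40.7 and 26.9 CPM in UNC. MYC in PROTAC was at 56.8, 48.7 and 39.4 CPM, and PROTAC against UNC was called at 0.50 (adjusted p = 3.26e-06). MAX, the partner of MYC, fell by 0.17 and TSC2, a brake on mTOR, by 0.19, while the mTOR inhibitor DEPTOR rose by 0.28, the repressor of cap-dependent initiation EIF4EBP2 by 0.21, its relative EIF4EBP1 by 0.19 and SP1 by 0.17. IPO7, which imports ribosomal proteins, rose by 0.19, the only call among 17 chaperones and importers in UNC in that fit. MYCN, of the same supply list, had -0.06 in UNC and was not called (adjusted p = 0.516, paired edgeR test). The core ribosomal protein median in UNC was 0.08 in the same fit, with 0 core members called lower. A link between MYC and the ribosomal protein genes was not tested.

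**Figure D5:**
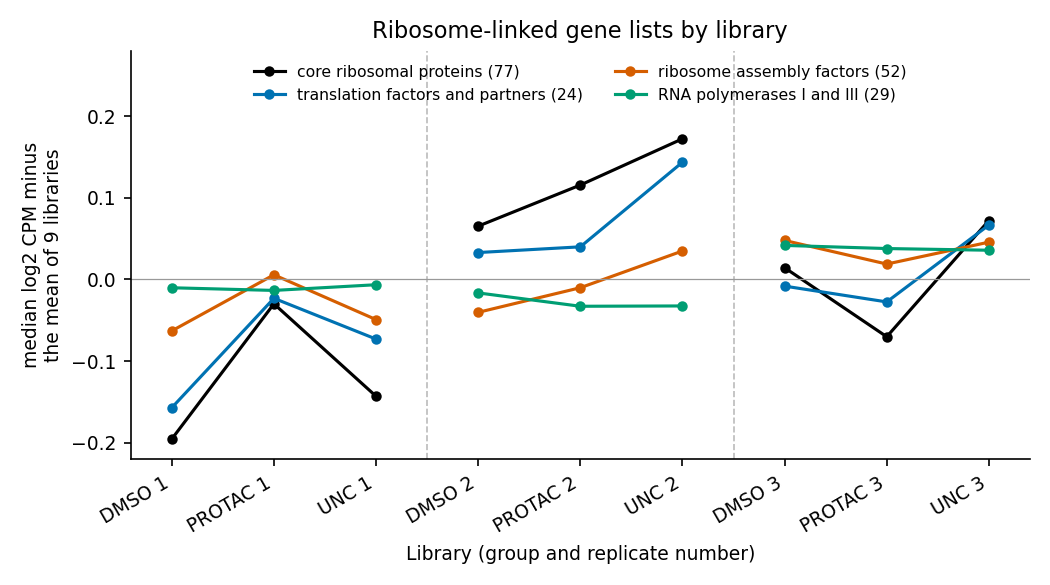
Median log2 CPM minus the mean of 9 libraries for core ribosomal proteins, translation factors, assembly factors and RNA polymerases I and III, by library in order of replicate number; lines join libraries of a number. Core ribosomal proteins range from -0.20 in DMSO 1 to 0.17 in UNC 2 and translation factors follow them in a narrower span, while the polymerase list stays within 0.05 of 0.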

How the data were processed

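RNA was sequenced from 9 libraries in 3 groups of 3, grouped and numbered by their titles. The submitters' processing notes name Trim Galore 0.6.10, HISAT2 2.2.1 and the build GRCh38. The authors deposited raw whole-number counts for each gene with its coordinates. Which tool, annotation and strand setting made them is not given in the sources used here. Without strand, reads of overlapping genes cannot be told apart, and 53 of 81 members overlap another entry. The molecule field reads polyA RNA while the labels' protocols name depletion of ribosomal RNA, so the RNA selection is uncertain. 5 entries without identifier were left out.

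Counts were analysed in edgeR 4.0.16 under R 4.3.3, with TMM scaling and the default expression filter. All 9 libraries entered a robust quasi-likelihood fit with group as the only term, with two-sided tests and Benjamini-Hochberg adjustment over 24182 genes at a false discovery rate of 0.05. Fold changes are log2. The paired fit adds the replicate number as a block. Over all genes, the 9 correlations of deviations between libraries of the same number were 0.106 to 0.472. The minimum for treating numbers as pairs was 0.1. Between libraries of different numbers they were -0.324 to 0.0748. Over the members alone they were -0.603 to 0.752 (median 0.315) for the same number and -0.825 to 0.759 (median -0.121) for different numbers. The ranges thus overlapped widely over the members. That libraries of a number share an experiment is not stated in the labels. The fitted biological variation was 13.2% without and 6.09% with the block. Chi-square per degree of freedom between replicates was 11.4 to 38.3, beyond counting noise, and no library was treated as a duplicate.

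Coding and spliced lengths and pseudogenes came from GENCODE 29, which matched all 81 members. Coding length was the longest annotated, and spliced length was that of the shortest transcript with that coding length. Named members were those called in either fit, the 3 highest and 3 lowest per kb, the variant copies with partners, stalk and 5S proteins, the 3 most and 3 least variable, and up to 4 called genes per list. Other genes were named beyond this rule, such as members with an unadjusted p under 0.05 and further called genes of the supply and assembly lists. The members, lists and tests were chosen with earlier results of these data known. Alternatives were other scalings, filters, DESeq2 1.42.0, limma-voom 3.58.1, stricter thresholds, fits of 6 libraries, added pseudogene rows and leaving out libraries. The fit was tested on simulated data. Results that need some withheld items are not reported here.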

Additional observations from a re-analysis of the deposited data

How the results depend on the processing

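By group alone, all 26 alternatives gave 0 calls in PROTAC against UNC, and 25 of 26 gave 0 in each comparison with DMSO; the replicate block gave 1 call in each of those. Median changes over members ran from -0.000888 to 0.16 in UNC, -0.03 to 0.09 in PROTAC and -0.11 to 0.03 between compounds over 21 alternatives. Of the calls with the replicate block, the single call in UNC became 0 without the block, under upper-quartile scaling, library size alone, added pseudogene rows, a false discovery rate of 0.01, a log2 fold change of at least 0.5, or members overlapping no entry; it became 4 with only 6 libraries (RPL10, RPL23A, RPS12 and RPS27) and 0 to 2 with a library or number left out. The call in PROTAC became 0 without the block, by library size alone, at 0.01, at 0.5 or among members overlapping no entry, and 0 to 1 with a library or number left out. Between compounds 0 became 3 without PROTAC 1 and 4 without number 1 of every group (range 0 to 4). The count lower in number 1 (67) was 46 to 68 over other scalings and tools, 23 without DMSO and 16 without UNC. The shares of all genes called under these alternatives are not given here, so the counts describe the members alone. Scaling moved the median of all genes by at most 0.03. The cause of these shifts was not tested. Depth was not the limit for core members. With 3 libraries a group, the median half-width of a core 95% interval was 0.217 by group alone and 0.113 with the block. At such a half-width, the interval of a smaller change includes 0. These intervals are not adjusted for the number of genes, and with the block some changes above 0.113 were also not called. They are thus no limit of detection.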
